A study of Mus musculus with 15 samples.

Results

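The data describe how the response of mouse cortex to chronic nicotine depended on presenilin genotype, as the interaction between genotype and treatment in 15 RNA-seq libraries of prefrontal forebrain cortex, which were all the libraries of the series. Exposure started at 8 months of age and lasted 3 months, with nicotine given in drinking water at 100 µg/ml or plain water given in its place. The groups were conditional presenilin double knockout mice on nicotine (DKO nicotine, n = 3), the same genotype on water (DKO water, n = 4), wild-type C57BL6/J mice on nicotine (WT nicotine, n = 4) and wild-type mice on water (WT water, n = 4). The driver of the conditional knockout is not given in the labels, and the labels do not say that each library came from a separate mouse, so p-values cover the spread among libraries, which may be technical. For each gene the interaction was the nicotine-minus-water difference in DKO less the same difference in WT, on log2(FPKM + 1), where FPKM is fragments scaled to transcript length and library depth. A positive interaction therefore means a nicotine difference that was more positive in DKO than in WT. The test covered 12283 autosomal genes, of 21878 rows in the tables, that reached 1 FPKM in at least 3 libraries.

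Presenilins are the catalytic subunits of gamma-secretase, the membrane protease that cleaves Notch receptors and the amyloid precursor protein, and their loss from forebrain neurons of adult mice is known to lead to progressive memory loss and neurodegeneration. Nicotine opens nicotinic acetylcholine receptors, cation channels that modulate transmitter release and arousal in cortex. Immediate early genes, which encode transcription factors and signalling inhibitors made within minutes of neuronal firing, are a common readout of recent activity in this tissue.

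The libraries held 16334861 to 19469174 reads in genes, recovered from the steps of the FPKM values. Psen2, a targeted gene (chr1:180227004-180263467), was at 1.36 to 1.76 FPKM in DKO nicotine, 1.29 to 1.72 in DKO water, 5.71 to 7.05 in WT nicotine and 5.44 to 7.14 in WT water. The cortical markers Slc17a7, Tbr1, Neurod6 and Gad1 were detected in every library, with Slc17a7, the vesicular glutamate transporter of cortical projection neurons, between 522 and 585 FPKM. The Y-linked gene Ddx3y was near 0 in DKO nicotine replicate 2 (0.0989 FPKM) and in all 4 WT nicotine libraries (0.0228 to 0.0650 FPKM), and at 9.96 to 13.1 FPKM in the other libraries. The Y-linked genes Eif2s3y, Kdm5d and Uty had the same pattern. Nicotine exposure and the absence of Y-linked expression cannot be told apart in WT, and each interaction value below contains the WT difference. Bulk levels do not separate fewer cells of a type from less RNA per cell.

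Of the 12283 genes, 2 (0.0163%) had an interaction with an adjusted p under 0.05 (limma on log2(FPKM + 1), Benjamini-Hochberg over all genes tested), Serpinb6a and Gabra2. Both interactions were positive. No gene was called with a negative interaction by limma on FPKM, in which 344 genes (2.8%) were negative and 504 (4.1%) positive at an unadjusted p under 0.05. Limma voom on the recovered reads called the same 2 genes and had 892 genes at an unadjusted p under 0.05 in either direction. An interaction beyond 0.5 in either direction was estimated for 68 genes and beyond 1 for 5 genes. The standard error of the median gene was 0.0902 for the interaction, 0.0662 for the nicotine difference in DKO and 0.0613 for that in WT, so the interaction was the least precise of the 3.

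The 2 nicotine differences that make up the interaction shared no library. In DKO, 21 genes (0.171%) were called for nicotine against water, 14 higher (0.114%) and 7 lower (0.057%), and in WT 15 genes (0.122%) were called, 10 higher (0.0814%) and 5 lower (0.0407%). Bhlhe41, a repressor of the circadian clock, and Jsrp1, a junctional membrane protein of the sarcoplasmic reticulum in muscle, were called in both, which is 9.52% of the DKO calls and 13.3% of the WT calls. Across the 12283 genes the DKO and WT differences had a Pearson correlation of 0.224 and a Spearman correlation of 0.232, given as a description over genes, which are not independent replicates. Of the 21 DKO calls, 15 passed an unadjusted p under 0.05 for the interaction, which 848 of all genes (6.9%) did, and 0 were called for it. Of the 15 WT calls, 11 passed the unadjusted p and 2 were called. At an unadjusted p under 0.05, 13.9% of all genes differed by treatment in DKO and 8.69% in WT. The nicotine and water libraries did not overlap for 10.9% of genes in DKO and 5.78% in WT. Groups of 3 and 4 libraries (DKO) separate by chance more often than groups of 4 and 4 (WT). The 2 shares without overlap can therefore not be compared directly. Each nicotine difference is a term of the interaction, so these counts describe the genes and are no separate evidence.

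**Figure D1:**
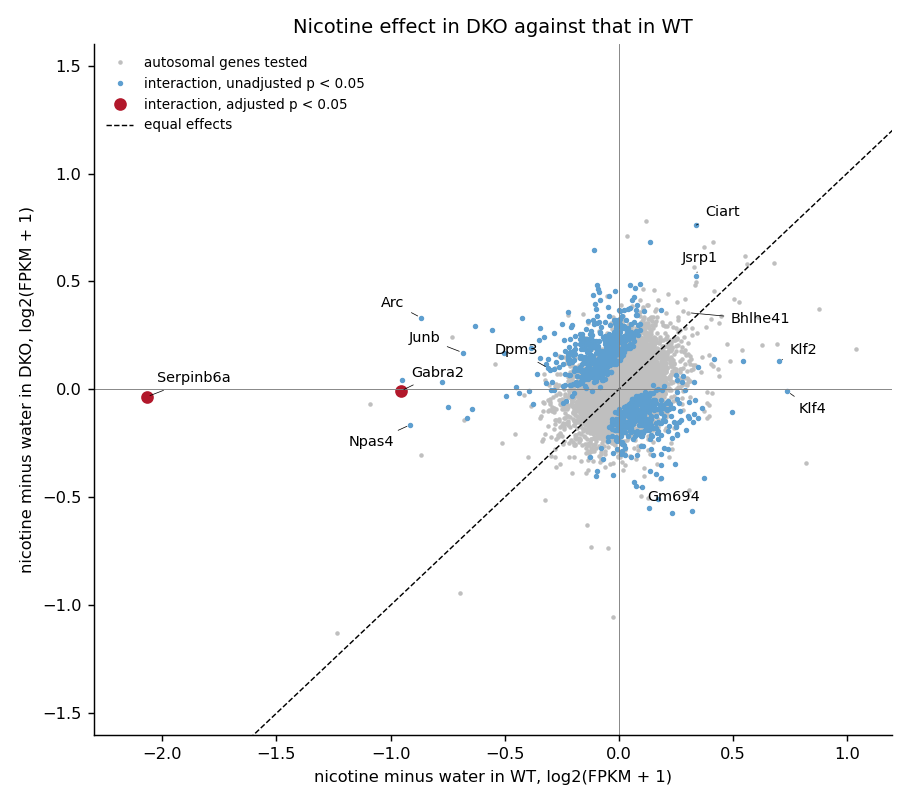
Nicotine-minus-water difference in DKO (y axis) against that in WT (x axis), both as log2(FPKM + 1), for 12283 autosomal genes. Vertical distance from the dashed line is the estimated interaction, which was called for Serpinb6a and Gabra2 (red) alone. Both genes lie far to the left at about 0 on the y axis, since they were lower under nicotine in WT and near equal in DKO.

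Serpinb6a encodes an intracellular inhibitor of serine proteases of the clade B serpin family (chr13:33917918-34002794, GRCm38.p6). It was at 15.05, 16.02 and 20.3 FPKM in DKO nicotine, 18.8, 18.6, 16.1 and 16.4 in DKO water, 2.096, 2.23, 2.71 and 2.08 in WT nicotine, and 15.7, 13.7, 14.1 and 8.55 in WT water. All 4 WT nicotine libraries lay below every other library, while the 2 DKO groups overlapped. Its mean was 17.1 ± 2.77 FPKM in DKO nicotine against 17.5 ± 1.44 in DKO water, and 2.28 ± 0.298 in WT nicotine against 13.02 ± 3.11 in WT water (SD). The nicotine difference was -0.03 in DKO (adjusted p = 0.934) and -2.07 in WT (adjusted p = 3.96e-07), which gives an interaction of 2.03 (SE 0.198, limma adjusted p = 0.000169). Read the other way, the DKO-minus-WT difference was 2.46 among nicotine libraries and 0.42 among water libraries. The call held in all 24 alternative settings, with interactions from 1.91 to 2.45.

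Gabra2 encodes the alpha2 subunit of GABA-A receptors, the chloride channels of fast inhibition (chr5:70958392-71095849). It was at 10.8, 11.6 and 9.69 FPKM in DKO nicotine, 11.3, 10.1, 11.1 and 10.6 in DKO water, 9.78, 9.72, 9.69 and 9.32 in WT nicotine, and 17.6, 17.6, 26.8 and 17.8 in WT water. The WT water libraries stood above all the others, and the remaining 3 groups lay between 9.32 and 11.6 FPKM. The nicotine difference was -0.01 in DKO (adjusted p = 0.978) and -0.96 in WT (adjusted p = 0.000209), and the interaction was 0.95 (SE 0.146, limma adjusted p = 0.0387). DKO was lower than WT by 0.81 on the log2 scale among water libraries (limma adjusted p = 6.94e-06), and the DKO-minus-WT difference among nicotine libraries was 0.14 (limma adjusted p = 0.348). The interaction call was lost on leaving out any DKO library or any WT nicotine library (adjusted p up to 0.155) and kept on leaving out any WT water library. It was also lost with no filter on low values (adjusted p = 0.143), with no intensity trend (0.0690), with library quality weights (0.0934) and with the replicate number as a block (0.0847), so that it held in 9 of 24 alternatives. Without WT water replicate 3, which held the highest value, the interaction was 0.80 (adjusted p = 0.000252).

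The relatives of both genes had smaller interactions. Of 18 listed serpins, the clade B members and Serpini1, a neuronal serpin, 6 were tested. Serpinb6a and Serpinb6b were positive at an unadjusted p under 0.05 for the interaction (4.1% of all genes), and 0 were negative (2.8%). In WT, 3 of the 6, Serpinb6a included, were lower under nicotine at an unadjusted p (3.83% of all genes). Serpinb6b, a close paralogue whose reads may be split with Serpinb6a by the counting, was low throughout: 1.08, 1.37 and 1.79 FPKM in DKO nicotine, 1.31, 1.43, 1.07 and 0.742 in DKO water, 0.636, 0.785, 0.564 and 0.621 in WT nicotine and 0.976, 1.02, 0.573 and 1.05 in WT water. Its interaction was 0.37 (SE 0.169, limma adjusted p = 0.700). Of 13 GABA-A receptor genes, 11 were tested and Gabra2 alone passed the unadjusted p for the interaction (6.9% of all genes). The median interaction of the list was 0.03. Gabra2 is among 9 listed genes known to differ in level between C57BL/6 substrains. Of these, 5 were tested, and Gabra2 was the only one past the unadjusted p for the interaction (6.9% of all genes).

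Genes near these loci were examined within 2 Mb. Around Gabra2, 10 other genes were tested, with interactions between -0.24 and 0.29. They included the GABA-A receptor genes Gabrg1, Gabra4 and Gabrb1 at -0.05, -0.04 and 0.09. Around Serpinb6a, 16 other genes were tested, with interactions between -0.16 and 0.37, and Nqo2 and Ripk1, whose annotated spans overlap that of Serpinb6a, were at 0.01 and 0.03. Past the unadjusted p, 2 neighbours of Gabra2 (Guf1 and Nfxl1) and 3 of Serpinb6a (Wrnip1, Serpinb6b and Bphl) were positive and 0 were negative. Among all genes tested, 4.1% were positive and 2.8% negative at that p. No neighbour was called for nicotine in WT (0.122% of all genes were). At an unadjusted p under 0.05 in WT, 3.83% of all genes were lower under nicotine and 4.85% higher. Near Serpinb6a, Wrnip1 (-0.14), Serpinb1a (-0.34), Bphl (-0.21) and Tubb2b (-0.12) were lower in WT at that p. Near Gabra2, Gnpda2 (0.14) and Gabra4 (0.09) were higher. These neighbours were named for their position, after their values were seen.

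**Figure D2:**
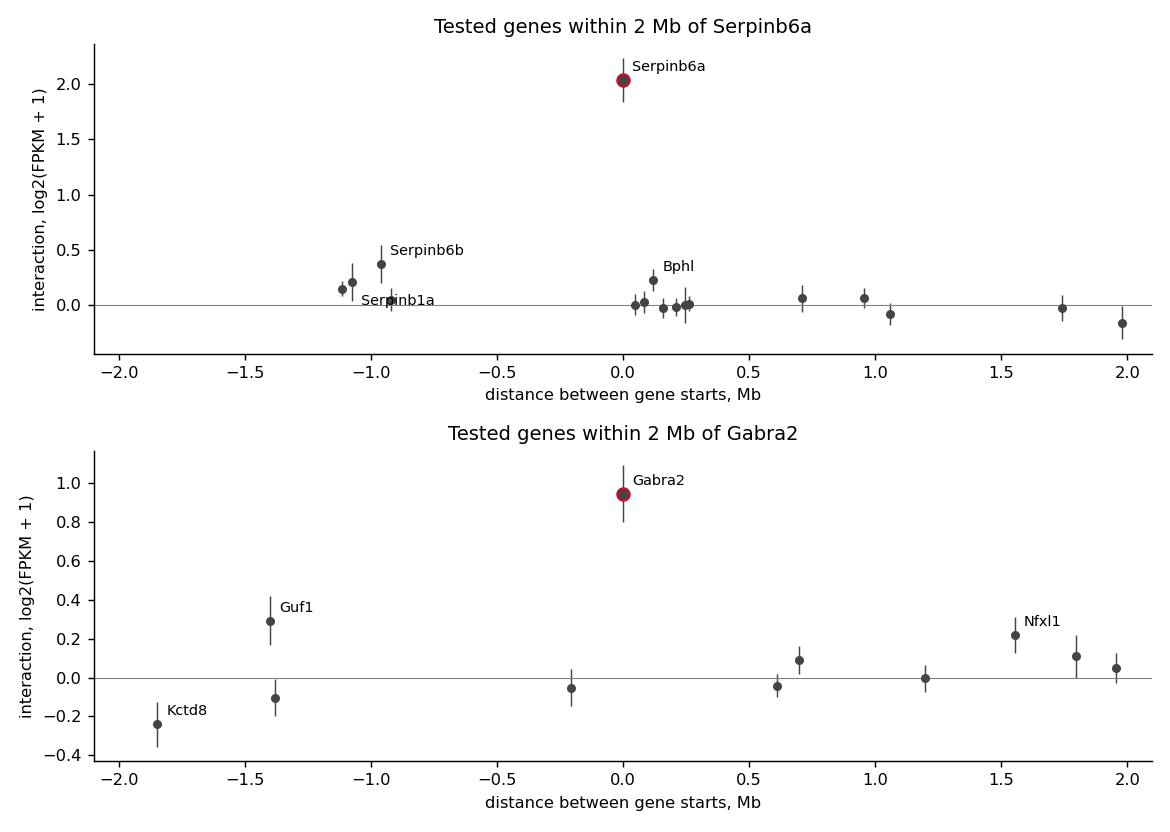
Interaction on log2(FPKM + 1) (y axis; bars are the standard error) of each tested gene within 2 Mb of Serpinb6a (top) and Gabra2 (bottom), by the distance in Mb between gene starts (x axis). Both centre genes (red) stand apart from their neighbours, which lie between -0.24 and 0.37.

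Below these calls, the next gene by p was Klf4, a Krüppel-like transcription factor of vascular endothelium and other cells. Klf4 was at 2.07, 2.24 and 2.53 FPKM in DKO nicotine, 2.02, 2.17, 2.31 and 2.74 in DKO water, 3.62, 3.62, 3.80 and 4.37 in WT nicotine, and 2.28, 1.98, 1.59 and 1.80 in WT water. The WT nicotine libraries were above all 11 others. Its nicotine difference was -0.01 in DKO and 0.74 in WT, and the interaction of -0.75 (SE 0.124) missed the threshold (limma adjusted p = 0.0599), except without WT water replicate 1 (adjusted p = 0.0244). Klf2, its closest relative in endothelium, had an interaction of -0.57 (SE 0.164, limma adjusted p = 0.600), with a nicotine difference of 0.13 in DKO and 0.70 in WT. It was at 6.54 to 8.43 FPKM in DKO nicotine, 5.56 to 7.79 in DKO water, 7.66 to 11.1 in WT nicotine and 4.93 to 6.41 in WT water. The list of Krüppel-like and endothelial response genes, with 11 tested, had a median interaction of -0.02, and 5 members were positive. At an unadjusted p, 1 member was positive and 2 were negative (4.1% and 2.8% of all genes).

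Dpm3, which anchors dolichol-phosphate mannose synthase in the endoplasmic reticulum membrane, was at 20.2, 19.6 and 20.7 FPKM in DKO nicotine and 17.97, 20.2, 18.02 and 19.01 in DKO water, against 7.16, 7.86, 7.73 and 7.23 in WT nicotine and 9.17, 9.21, 10.4 and 9.30 in WT water. The WT groups did not overlap, and the genotypes were separated in both treatments. The interaction was 0.41 (SE 0.073, limma adjusted p = 0.112). Rprm, a cell cycle inhibitor induced by p53 that is also found in deep-layer cortical neurons, was at 50.1, 49.1 and 46.9 FPKM in DKO nicotine, 49.8, 51.8, 43.5 and 50.9 in DKO water, 30.6, 32.6, 31.1 and 30.8 in WT nicotine and 40.4, 44.0, 43.3 and 38.1 in WT water. It fell in WT (difference -0.39, limma adjusted p = 0.00364), was -0.01 in DKO, and had an interaction of 0.39 (SE 0.079, limma adjusted p = 0.327).

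Fcgr3, an immunoglobulin receptor of microglia, had an interaction of -0.48 (SE 0.1005, limma adjusted p = 0.327). It was at 11.4 to 11.96 FPKM in DKO nicotine and 12.3 to 13.96 in DKO water, against 5.96 to 7.70 in WT nicotine and 4.72 to 5.70 in WT water, so that neither pair of groups overlapped and the differences ran in opposite directions. The remaining 19 genes of the 25 with the smallest interaction p, gene models without names left out, had interactions from -0.53 (Dhrs11, an oxidoreductase) to 0.75 (Npas4), with adjusted p from 0.438 to 0.566. They included the neuronal calcium sensor Hpca at -0.32 (SE 0.072), the proteoglycan Sdc4 at -0.34 (SE 0.075), the cell cycle phosphatase Cdc25b at 0.40 (SE 0.097) and the DNA glycosylase Tdg at 0.33 (SE 0.078). Hpca was at 228 to 256 FPKM in DKO nicotine, 245 to 284 in DKO water, 298 to 339 in WT nicotine and 280 to 296 in WT water. Of the 25 genes, 19 had nicotine differences of opposite sign in the genotypes. So had 695 of the 848 genes at an unadjusted p under 0.05 for the interaction (82.0%), and 41.0% of all genes tested. Genes were picked here by the DKO difference less the WT difference, which opposite signs make larger. The selection itself therefore raises this share, which is no separate evidence of opposed responses.

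**Figure D3:**
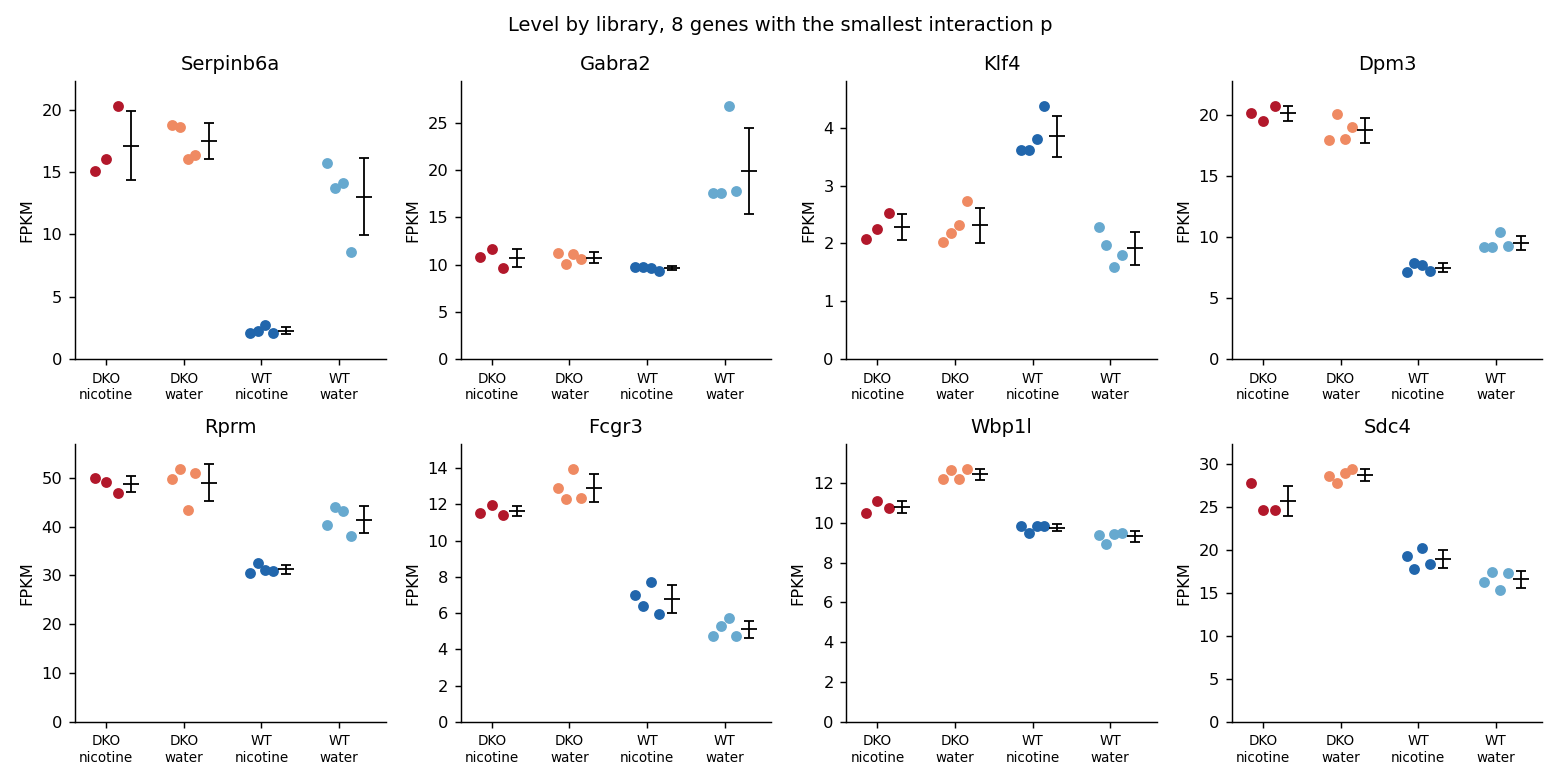
FPKM (y axis, from 0) in each library (points) of the 8 genes with the smallest interaction p, gene models without names left out. Black bars are group means and SD (DKO nicotine n = 3, the other groups n = 4). In Serpinb6a, Gabra2, Klf4, Dpm3 and Rprm the treatment means lie further apart in WT than in DKO, and in Wbp1l further apart in DKO (-0.19, against 0.06 in WT).

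Immediate early genes made up the list with the most members past an unadjusted p for the interaction. Of 40 listed, 39 were tested, 0 were called, and 18 were positive and 0 negative at an unadjusted p under 0.05, against 4.1% and 2.8% of all genes tested. The median interaction was 0.33, and 0.01 over all genes. In DKO the median nicotine difference was 0.07, with 5 members higher and 1 lower at an unadjusted p (8.65% and 5.21% of all genes). In WT it was -0.17, with 0 higher and 16 lower (4.85% and 3.83% of all genes). The count of 18 ranged from 10, without DKO nicotine replicate 1, to 20 over the alternatives, beside 0 or 1 negative members, and the median from 0.23 to 0.42.

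The promoters of the immediate early genes with the smallest and next smallest p are shown because cAMP- and calcium-dependent transcription factors act through such sequences. They run 5′ to 3′ on the gene's strand, from 250 bases before the start to 50 after it (RefSeq, GRCm38.p6), with TGACG, the core of the cAMP response element, in capitals on either strand (CGTCA where it lies on the other). Npas4 (chr19:4989922-4990221, minus strand) holds 2 matches and Junb (chr8:84978699-84978998, minus strand) holds 1.
Npas4: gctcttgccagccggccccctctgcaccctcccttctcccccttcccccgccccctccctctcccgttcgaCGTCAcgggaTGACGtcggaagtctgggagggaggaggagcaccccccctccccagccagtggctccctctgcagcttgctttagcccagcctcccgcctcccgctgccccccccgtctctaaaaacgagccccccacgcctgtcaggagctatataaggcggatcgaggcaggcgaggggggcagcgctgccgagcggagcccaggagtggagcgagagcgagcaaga
Junb: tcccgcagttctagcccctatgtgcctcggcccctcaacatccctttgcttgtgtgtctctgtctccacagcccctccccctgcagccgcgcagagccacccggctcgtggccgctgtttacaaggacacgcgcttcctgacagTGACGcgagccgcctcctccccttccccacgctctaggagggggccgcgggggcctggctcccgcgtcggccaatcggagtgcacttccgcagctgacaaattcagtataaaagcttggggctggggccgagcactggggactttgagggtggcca
Of the 39 tested members, 29 had a promoter in the RefSeq table, and 21 of these (72.4%) held TGACG, against 35.4% of 9805 tested genes with a promoter. The full palindrome TGACGTCA, which contains the core on both strands, was in 4 of the 29 (13.8%) and in 3.62% of the 9805. A match describes the letters in this window and is no evidence of binding.

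Npas4, an activity-dependent transcription factor that regulates inhibitory synapses, was at 3.54, 2.90 and 3.04 FPKM in DKO nicotine, 4.35, 2.97, 4.33 and 3.13 in DKO water, 3.36, 3.99, 2.74 and 2.56 in WT nicotine and 5.96, 8.07, 6.27 and 6.98 in WT water. The WT water libraries were above all 11 others. Npas4 fell in WT (difference -0.91, limma adjusted p = 0.00252), had a difference of -0.16 in DKO, and an interaction of 0.75 (SE 0.176, limma adjusted p = 0.462). Junb, a subunit of the AP-1 transcription factor, was at 32.7, 24.1 and 24.8 FPKM in DKO nicotine, 20.9, 20.03, 27.9 and 27.5 in DKO water, 25.9, 29.4, 45.6 and 44.9 in WT nicotine and 58.3, 54.8, 54.3 and 62.7 in WT water. Its interaction was 0.85 (SE 0.234, limma adjusted p = 0.594), and WT nicotine replicates 1 and 2 lay near the DKO libraries while replicates 3 and 4 lay closer to WT water. Plk3, a stress-responsive kinase, had an interaction of 0.47 (SE 0.135), and Egr1, the most abundant member, one of 0.33 (SE 0.236; 0.17 without DKO nicotine replicate 1, 0.20 without DKO water replicate 2 and 0.22 without WT nicotine replicate 2), with 40.8 to 60.4 FPKM in DKO nicotine, 36.4 to 59.1 in DKO water, 85.2 to 131 in WT nicotine and 122 to 150 in WT water.

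Arc, a synaptic plasticity protein chosen here after its values were seen, had the largest interaction of the list at 1.199 (95% interval 0.14 to 2.26). It was at 46.9, 27.6 and 19.5 FPKM in DKO nicotine, 14.1, 16.7, 34.4 and 35.0 in DKO water, 28.9, 47.9, 90.1 and 79.9 in WT nicotine and 109, 85.9, 102 and 120 in WT water. The spread within groups was wide, and replicates 1 and 2 of DKO water and of WT nicotine were again the low ones of their groups. The mean log2(FPKM + 1) over the 39 genes was 3.58, 3.33 and 3.36 in DKO nicotine, 3.25, 3.26, 3.43 and 3.44 in DKO water, 3.27, 3.39, 3.72 and 3.75 in WT nicotine and 3.72, 3.68, 3.79 and 3.89 in WT water. WT nicotine was therefore split, with 2 libraries within the range of the DKO libraries and 2 within that of WT water.

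**Figure D4:**
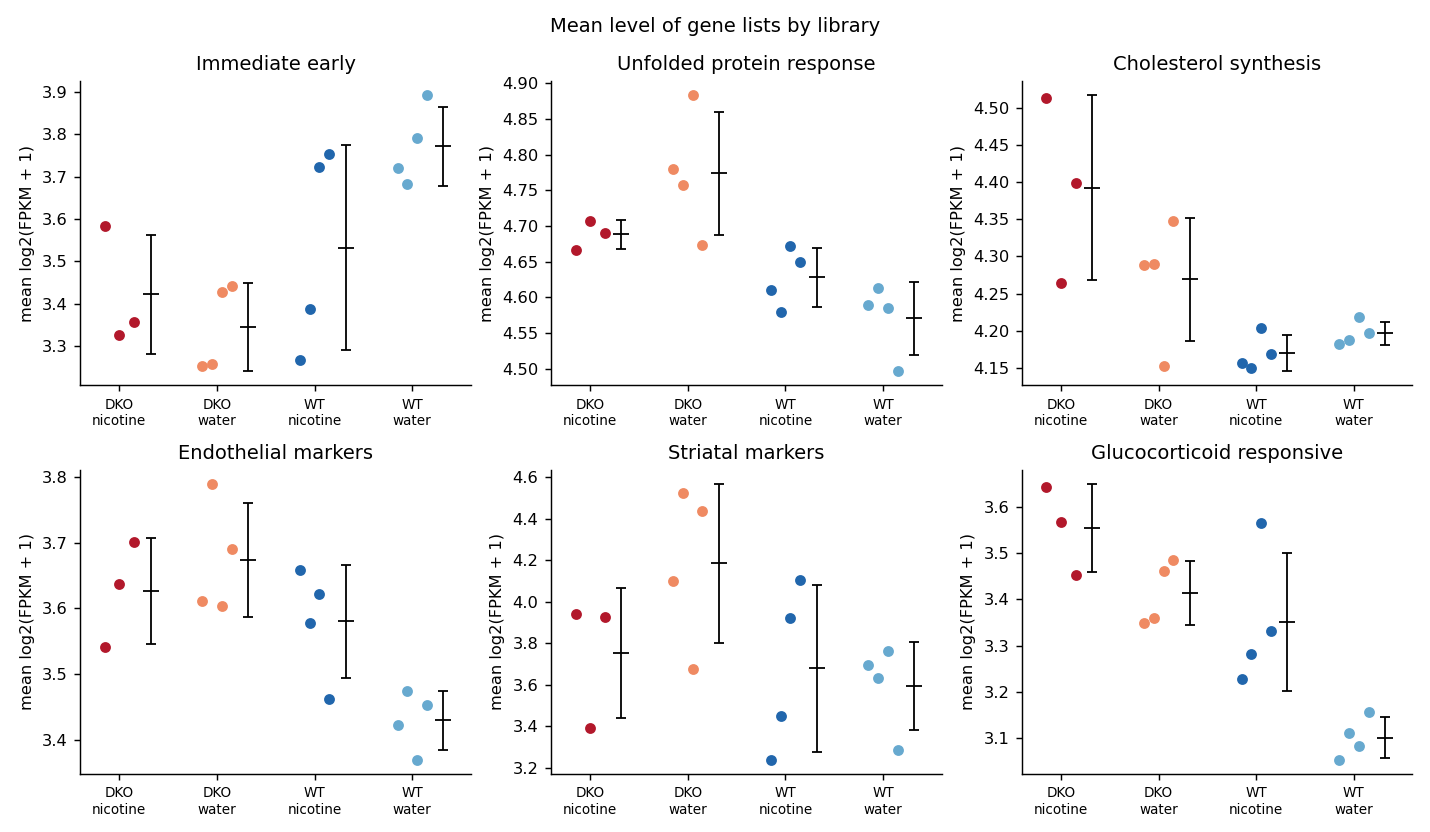
Mean log2(FPKM + 1) (y axis, not from 0) of 6 gene lists in each library (points), with group means and SD (black bars; DKO nicotine n = 3, the other groups n = 4). Immediate early genes were lowest in DKO and in WT nicotine replicates 1 and 2 (3.27 and 3.39), and glucocorticoid-responsive genes were lowest in WT water (3.05 to 3.16).

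Cholesterol synthesis genes, targets of the sterol-sensing SREBP transcription factors, had 20 of 21 members tested. All 20 interactions were positive (6430 of the 12283 genes were), and the median was 0.13. At an unadjusted p under 0.05, 6 were positive (4.1% of all genes), and none was called. In DKO the median nicotine difference was 0.14 and 9 members were higher at an unadjusted p (8.65% of all genes). In WT the median was -0.02, with 0 higher and 2 lower (4.85% and 3.83% of all genes). Hmgcs1, an early enzyme of the mevalonate pathway, was at 111, 97.3 and 104 FPKM in DKO nicotine, 95.01, 90.1, 84.9 and 93.9 in DKO water, 90.0, 87.9, 91.6 and 92.8 in WT nicotine and 97.8, 97.3, 99.4 and 91.1 in WT water. The DKO groups did not overlap, and the interaction was 0.28 (SE 0.065, limma adjusted p = 0.462). Insig1, the sterol-dependent retention protein of SREBP cleavage, had an interaction of 0.32 (SE 0.125). The median was 0.06 without DKO nicotine replicate 1 and 0.20 without DKO nicotine replicate 2. The count of 6 was 2 and 10 without these libraries, and 3 without DKO nicotine replicate 3, DKO water replicate 3 or WT nicotine replicate 2. The means over the list were 4.51, 4.26 and 4.40 in DKO nicotine and 4.29, 4.29, 4.15 and 4.35 in DKO water, and all 8 WT libraries lay between 4.15 and 4.22.

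The Hmgcs1 promoter (chr13:119690101-119690400, plus strand, same window and source) is shown with CACCCCAC, a sterol regulatory element, in capitals, as the leading gene of the list.
Hmgcs1: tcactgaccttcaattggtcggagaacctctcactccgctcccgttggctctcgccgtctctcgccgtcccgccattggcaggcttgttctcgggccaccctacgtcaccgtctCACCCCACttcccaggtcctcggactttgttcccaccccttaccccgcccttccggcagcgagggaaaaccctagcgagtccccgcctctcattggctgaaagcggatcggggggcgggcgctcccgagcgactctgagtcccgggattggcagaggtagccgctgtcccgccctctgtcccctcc
The element was in 2 of 13 list members with a promoter (15.4%) and in 3.82% of the 9805 genes, counting both strands.

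Genes of the unfolded protein response, the chaperones and folding enzymes of the endoplasmic reticulum with their transcription factors, leaned the other way. Of 22 listed, 21 were tested and 0 were called, with a median of -0.12. At an unadjusted p, 0 were positive and 6 negative (4.1% and 2.8% of all genes). The median nicotine difference was -0.07 in DKO, with 9 lower at an unadjusted p (5.21% of all genes). In WT it was 0.03, with 2 higher (4.85% of all genes). The count of 6 stayed between 4 and 9 over the alternatives. Pdia4, a disulfide isomerase, was at 13.5, 14.1 and 14.1 FPKM in DKO nicotine, 15.4, 15.9, 18.4 and 15.01 in DKO water, 13.5, 12.2, 13.9 and 14.6 in WT nicotine and 12.03, 12.3, 12.98 and 10.5 in WT water, with an interaction of -0.37 (SE 0.101, limma adjusted p = 0.594). The DKO groups did not overlap and the WT groups did. Hspa5, the main chaperone of the compartment, was at 71.0, 79.0 and 74.9 FPKM in DKO nicotine, 83.5, 83.0, 107 and 77.2 in DKO water, 80.9, 71.9, 86.6 and 88.5 in WT nicotine and 77.7, 75.7, 73.1 and 69.5 in WT water. Its interaction was -0.36 (SE 0.120), and that of Manf, a secreted folding factor, -0.29 (SE 0.104).

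The Hspa5 promoter (chr2:34771840-34772139, plus strand) is shown because it holds the endoplasmic reticulum stress element, CCAAT followed by 9 bases of any kind and CCACG, in capitals.
Hspa5: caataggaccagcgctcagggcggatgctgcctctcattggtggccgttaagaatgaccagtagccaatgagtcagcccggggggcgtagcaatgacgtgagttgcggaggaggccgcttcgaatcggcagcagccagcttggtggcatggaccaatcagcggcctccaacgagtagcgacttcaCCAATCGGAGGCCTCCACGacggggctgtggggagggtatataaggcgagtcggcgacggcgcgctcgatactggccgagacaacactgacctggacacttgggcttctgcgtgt
This element was in 7 of 19 list members with a promoter (36.8%) and in 15 of the 9805 tested genes (0.153%), counting both strands. Of the 6 members past the unadjusted p for the interaction, Hspa5 and Pdia6 held it. Members without a promoter in the RefSeq table, Manf among them, could not be searched.

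Endothelial and astrocyte markers had mostly negative interactions. Of 23 endothelial markers, 22 were tested and 0 were called. The median was -0.18, with a DKO median of -0.08 and a WT median of 0.13. At an unadjusted p, 0 were positive and 5 negative (4.1% and 2.8% of all genes). Slc2a1, the glucose transporter of the blood-brain barrier, was at 40.8, 40.9 and 34.6 FPKM in DKO nicotine, 33.4, 35.1, 33.8 and 37.6 in DKO water, 40.3, 39.99, 50.9 and 44.8 in WT nicotine and 32.1, 33.0, 32.1 and 33.0 in WT water. It rose in WT (difference 0.42, limma adjusted p = 0.0142; up to 0.0531 without WT water replicate 3 or 4 and with the replicate block), was 0.14 in DKO, and had an interaction of -0.27 (SE 0.1002, limma adjusted p = 0.664). Emcn, an endothelial sialomucin, and Vwf, the clotting factor carrier stored in endothelium, had interactions of -0.41 (SE 0.140) and -0.79 (SE 0.271). The endothelial count was 9 without WT nicotine replicate 4. Of 20 astrocyte markers, all tested, 4 were negative at an unadjusted p (2.8% of all genes). The list median was -0.12, with a DKO median of -0.03 and a WT median of 0.09. Fgfr3, a growth factor receptor of astrocytes, had an interaction of -0.31 (SE 0.077) and Clu, a secreted chaperone, of -0.17 (SE 0.072). The astrocyte count was 8 without WT nicotine replicate 4, 7 with the replicate number as a block, and 2 without DKO nicotine replicate 1, DKO water replicate 2, WT nicotine replicate 1, or WT water replicate 3 or 4.

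Striatal markers, which bear on where the dissection ended, had the most negative median interaction of the lists with 5 or more tested members. All 11 tested of 12 were negative, 4 at an unadjusted p (2.8% of all genes). The median was -0.49, with a DKO median of -0.45 and a WT median of 0.10. Penk, the enkephalin precursor abundant in striatum, was at 56.6, 32.6 and 67.2 FPKM in DKO nicotine, 75.1, 90.1, 49.5 and 90.4 in DKO water, 40.3, 49.4, 72.0 and 70.0 in WT nicotine and 32.7 to 57.4 in WT water. Its interaction was -0.88 (SE 0.353, limma adjusted p = 0.680), and both pairs of groups overlapped. The list mean ran from 3.39 to 3.94 in DKO nicotine, 3.68 to 4.53 in DKO water, 3.24 to 4.11 in WT nicotine and 3.28 to 3.76 in WT water. The count of 4 was 0 without DKO nicotine replicate 2 or WT water replicate 4, 1 without DKO water replicate 2 or 4 or WT nicotine replicate 3 or 4, 8 without DKO water replicate 3, and 2 with no filter or with the replicate number as a block. The part of striatal RNA in the other list differences was not tested.

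**Figure D5:**
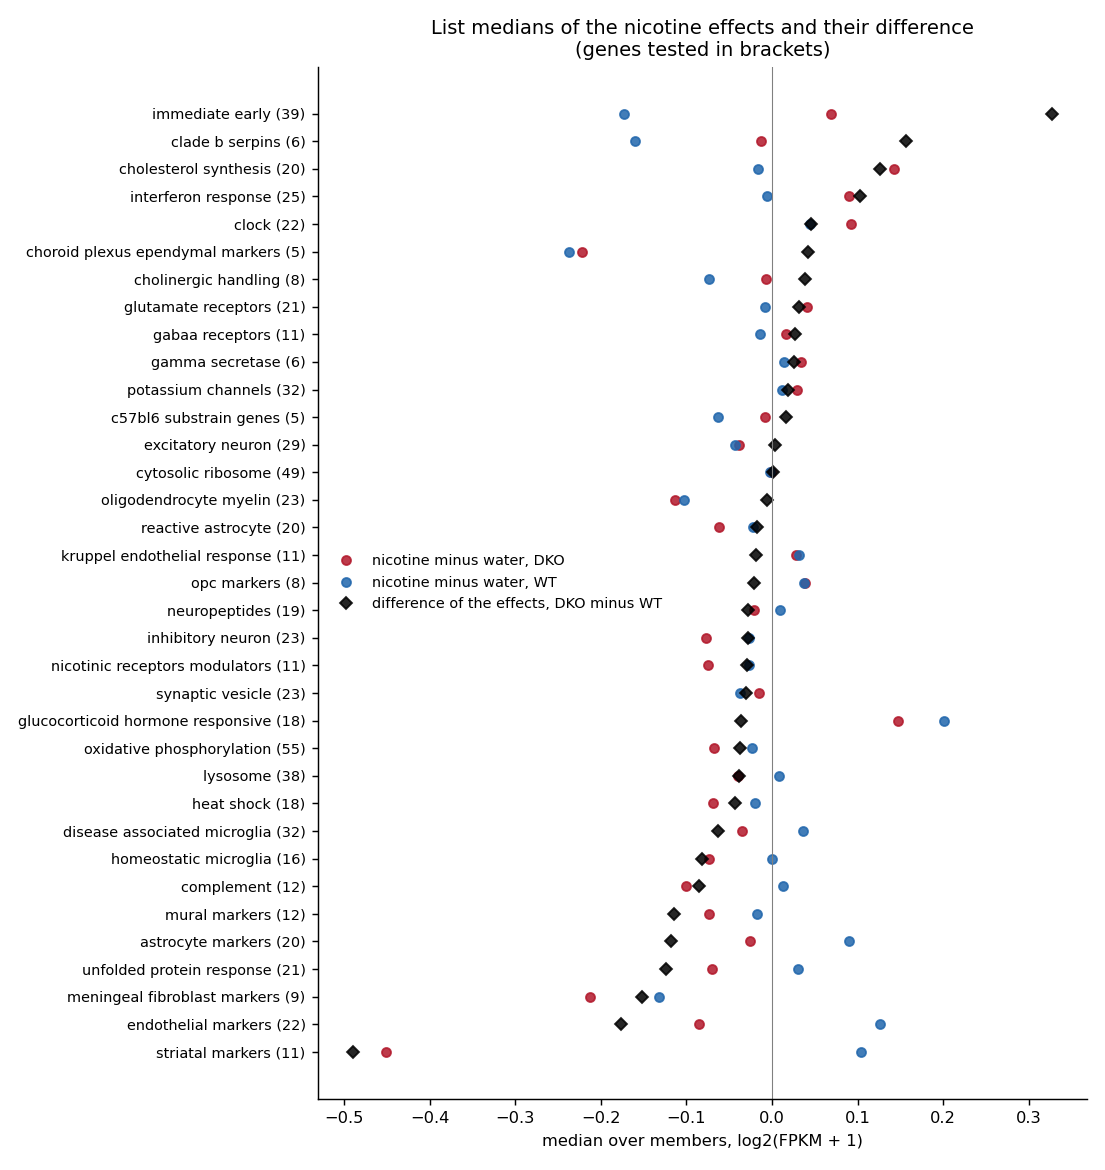
Median over each gene list (rows, with the number of tested genes) of the nicotine-minus-water difference in DKO (red) and in WT (blue) and of the interaction (black diamonds), on log2(FPKM + 1) (x axis). Immediate early genes have the highest median interaction (0.33) and striatal markers the lowest (-0.49), while glucocorticoid-responsive genes have positive differences in both genotypes (0.15 and 0.20).

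Genes that respond to glucocorticoids and related hormones had positive median nicotine differences in both genotypes. Of 19 listed, 18 were tested. The median difference was 0.15 in DKO, with 6 members higher and 0 lower at an unadjusted p (8.65% and 5.21% of all genes). In WT it was 0.20, with 9 higher and 0 lower (4.85% and 3.83% of all genes). The median interaction was -0.04. At an unadjusted p for it, 0 members passed in either direction (6.9% of all genes), with 1 negative under some alternatives. Mt1, a metal-binding metallothionein and the most abundant member, had differences of 0.14 in DKO and 0.15 in WT, with a 95% interval of the interaction of -0.28 to 0.25. Zbtb16, a glucocorticoid-induced transcription factor, had 0.12 in DKO and 0.29 in WT (interval -0.51 to 0.16).

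The circadian clock genes gave a mixed pattern. Of 24 listed, 22 were tested. Under nicotine, 5 were called higher in DKO (0.114% of all genes) and 1 in WT (0.0814%), and 0 were called for the interaction. At an unadjusted p, 11 were higher and 3 lower in DKO (8.65% and 5.21% of all genes). In WT, 8 were higher and 3 lower (4.85% and 3.83%). For the interaction, 4 were positive and 0 negative at that p (4.1% and 2.8%). Ciart, a repressor of the clock activator complex, was at 9.46, 6.85 and 5.87 FPKM in DKO nicotine, 3.63, 3.84, 4.12 and 3.92 in DKO water, 10.3, 11.6, 12.9 and 13.2 in WT nicotine and 9.05, 8.11, 10.2 and 9.70 in WT water. It rose in DKO (difference 0.76, limma adjusted p = 0.0143), had 0.34 in WT (limma adjusted p = 0.349) and an interaction of 0.42 (95% interval 0.10 to 0.75, limma adjusted p = 0.664), which was 0.25 without DKO nicotine replicate 1. Bhlhe41 rose in both, by 0.36 in DKO and 0.30 in WT (limma adjusted p = 0.0143 and 0.0141), with an interaction of 0.05 (interval -0.10 to 0.21). It was at 11.2, 11.01 and 11.2 FPKM in DKO nicotine, 8.13, 8.67, 8.23 and 8.98 in DKO water, 11.3, 10.8, 10.5 and 10.7 in WT nicotine and 8.13, 8.33, 9.60 and 8.32 in WT water, and neither pair of groups overlapped. Dbp, a clock output transcription factor, rose in DKO by 0.50 (limma adjusted p = 0.0143) and had 0.34 in WT (limma adjusted p = 0.0631). The collection time of day is not given in the labels. The 5 DKO calls were 0 without DKO water replicate 1 or 3 and 2 without DKO nicotine replicate 1 or 2. They were 3 without DKO water replicate 4, WT nicotine replicate 3 or WT water replicate 1 or 4, with no filter, with quality weights and with the replicate block. The highest limma adjusted p over the 24 alternatives was 0.0586 for Ciart, 0.0658 for Bhlhe41 and 0.0522 for Dbp. The WT call of Bhlhe41 was lost without WT nicotine replicate 1 or 2 or WT water replicate 1, 2 or 4 and with the replicate block (limma adjusted p up to 0.0715). The clock interaction count of 4 was 2 without DKO nicotine replicate 1 and 7 without DKO nicotine replicate 3.

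Genes called for nicotine in a single genotype were not thereby shown to differ between genotypes. Among genes called in DKO alone, Sec61a2, a protein translocation channel subunit, had an interaction of 0.21 (SE 0.064), Kcnk9, a leak potassium channel, 0.31 (SE 0.089), Pxdn, a matrix peroxidase, 0.18 (SE 0.085) and Creld1, an endoplasmic reticulum protein, -0.19 (SE 0.050), with limma adjusted p from 0.566 to 0.706. Kcnk9 was at 11.9, 12.9 and 10.9 FPKM in DKO nicotine, 8.52, 8.71, 8.73 and 9.25 in DKO water, 13.2, 12.7, 13.4 and 13.02 in WT nicotine and 12.1, 12.6, 10.8 and 13.9 in WT water. Among WT calls, Ucp2, a mitochondrial carrier, had differences of 0.13 in DKO and 0.54 in WT and an interaction of -0.41 (SE 0.115, limma adjusted p = 0.600). Gimap6, a lymphocyte GTPase, had 0.42 and 0.51 and an interaction of -0.09 (SE 0.115). Jsrp1, called in both, had an interaction of 0.18 (SE 0.084). The DKO calls of Sec61a2, Kcnk9, Pxdn and Creld1 were each lost without DKO nicotine replicate 2 and without DKO water replicate 1 or 3 (limma adjusted p up to 0.104 over the alternatives), and that of Jsrp1 held in all 24 alternatives. The WT call of Jsrp1 held in 18 of 24 alternatives and that of Ucp2 in all 24. The WT call of Gimap6 was lost with limma voom and without WT water replicate 4 (limma adjusted p up to 0.0575).

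The receptors on which nicotine acts had 0 interaction calls. Of 20 listed nicotinic receptor subunits and modulators, 11 were tested, with a median interaction of -0.03. At an unadjusted p, 2 members were lower under nicotine in DKO (5.21% of all genes), and 0 differed in WT (8.69%). Lynx1, a membrane-anchored brake on nicotinic receptors, was the only member past an unadjusted p for the interaction (6.9% of all genes). It was at 96.0, 96.5 and 85.6 FPKM in DKO nicotine, 108, 103, 114 and 94.8 in DKO water, 121, 123, 117 and 116 in WT nicotine and 129, 111, 115 and 120 in WT water. Its interaction was -0.18 (SE 0.083, limma adjusted p = 0.704), and both pairs of groups overlapped. Chrna4 and Chrnb2, subunits of the main high-affinity receptor of brain, had interactions of -0.12 (95% interval -0.33 to 0.10) and -0.10 (interval -0.25 to 0.06).

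Microglial and immune lists, the lists known for large changes in degenerating cortex, had 0 interaction calls. An unadjusted p under 0.05 for the interaction was reached by 6.9% of all genes. Of 32 disease-associated microglia genes, all tested, 0 passed an unadjusted p in either direction, with a median of -0.06. The count was 4 negative without DKO water replicate 4, 2 negative and 2 positive without DKO nicotine replicate 2, 2 negative with the replicate block, and at most 1 in each direction without any other library. Lilrb4a, an inhibitory myeloid receptor, was at 7.33, 4.58 and 5.03 FPKM in DKO nicotine and 5.38, 5.02, 3.93 and 3.71 in DKO water, against 0.140 to 0.186 in WT nicotine and 0.106 to 0.258 in WT water, with an interaction of 0.31 (SE 0.168), which was 0.14 without DKO nicotine replicate 1, 0.50 with a pseudocount of 0.1 and 0.56 with limma voom. The genotypes were far apart at both treatments, and the treatments overlapped in both genotypes. Of 16 tested homeostatic microglia genes, 0 were positive and 2 negative at an unadjusted p (4.1% and 2.8% of all genes), with a median of -0.08. The 2 were Selplg and Tmem119, surface proteins of microglia, with interactions of -0.26 (SE 0.0999) and -0.27 (SE 0.113). Over the alternatives, 1 to 3 members were negative and 0 to 1 positive at that p. Of 12 tested complement genes, 0 passed an unadjusted p (2 positive without DKO nicotine replicate 1, at most 1 in each direction without any other library), and of 25 tested interferon response genes 2 did, Ifi27 at 0.36 (SE 0.129) and Ifi27l2a at 0.54 (SE 0.251). The interferon count was 6 without DKO nicotine replicate 1 and 0 without DKO nicotine replicate 2. Cytosolic ribosome genes had 0 of 49 past an unadjusted p and a median of 0.00, and oxidative phosphorylation genes 1 of 55 and -0.04.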

How the data were processed

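Gene levels were used as deposited, as FPKM values per gene in a table for each of the 15 libraries, made by the authors. Per the labels' protocols, TRIzol was used for total RNA and a TruSeq Stranded mRNA LT kit for the libraries. Per the submitters' processing notes the genome build was GRCm38.p6. No aligner, counter or strand setting is named in the sources available, so reads of overlapping or near-identical genes may be split. The unit was taken from the file headers and the values: sums per library were 295704 to 319232, and every value of the tested genes was a whole number of reads within 0.02. From 21878 rows, 21727 matched RefSeq, and 27 names that had been turned into dates were restored.

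The values were analysed as log2(FPKM + 1), which understates changes of low genes, for the 12283 autosomal genes that reached 1 FPKM in 3 or more of 15 libraries. A further 427 expressed genes lie on sex chromosomes and 18 had no chromosome. At the median gene, 1 FPKM stood for 65.2 reads. limma (3.58.1, R 4.3.3) with an intensity trend fitted a mean per group over all 15 libraries, and Benjamini-Hochberg adjustment ran over all tested genes, with calls at an adjusted p under 0.05. Gene lists were described by counts and medians. The members and lists were chosen with earlier results of these data known. Named genes were the 25 with the smallest interaction p, gene models left out, up to 3 members of each list by p with its most abundant member, and up to 8 genes called for nicotine in each genotype; a few of these are not reported here. Alternatives were another pseudocount, other filters, no trend, library quality weights, rescaling by median ratios, limma voom on recovered reads, a replicate block, sex-chromosome genes included, and each library left out. The fit was tested on simulated data.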

Additional observations from a re-analysis of the deposited data

Results flagged for a closer look

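Serpinb6a (interaction 2.03) and Gabra2 (interaction 0.95) were flagged because the test of the difference between the genotypes' nicotine effects was past the threshold. In Gabra2 the WT water library of replicate 3, at 26.8 FPKM, also stood apart from the other 3 of its group, which lay between 17.6 and 17.8.

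A library stood apart from the other 3 of its group, by the gap relative to the range (Dixon's criterion), in 19 of 294 gene-by-group sets of 4 libraries, and chance gives about 5% of sets. WT water replicate 3 was the library in 6 of these. It was high in Gabra2 (above), in Dpm3 at 10.4 FPKM, in Cd59a, a complement inhibitor, at 3.09 and in Bhlhe41 at 9.60, and low in Serpinb6b at 0.573 and in Sec61a2 at 8.41. WT water replicate 4 was high in Vwf at 3.89 FPKM and Pxdn at 11.3 and low in Gpr6, an orphan receptor of striatal neurons, at 1.54.

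Among WT nicotine libraries, replicate 2 was low in Wbp1l at 9.47 FPKM and high in Hunk at 4.13, Lilrb4a at 0.186 and Olig1, an oligodendrocyte transcription factor, at 39.4. Replicate 1 was high in Fgfr3 at 21.3 FPKM and low in Klf2 at 7.66, replicate 4 was low in Rorb, a nuclear receptor of the clock and of cortical layers, at 4.22, and replicate 3 was high in Lcn2, an iron-binding acute phase protein, at 5.65. DKO water replicate 2 was low in Zbtb16 at 7.07 FPKM and Chrnb2 at 12.1. DKO nicotine has 3 libraries and was not examined in this way.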

How the results depend on the processing

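The 2 interaction calls were 1 (Serpinb6a) with no filter, with no trend, with quality weights and with the replicate block, and 1 to 3 on leaving out a library, with 1 to 2 positive and 0 to 1 negative calls. The negative calls were Esd, without DKO nicotine replicate 1, and Klf4, without WT water replicate 1. The 21 DKO calls were 13 with no trend, 6 with quality weights, 88 with limma voom, and 1 to 55 on leaving out a library: 1 without DKO water replicate 1 or 3, 4 without DKO nicotine replicate 2, 6 without DKO nicotine replicate 1, 8 without WT water replicate 4, 9 without DKO water replicate 2, WT nicotine replicate 3 or WT water replicate 1, and 55 without DKO nicotine replicate 3. The 15 WT calls were 25 with quality weights and 8 to 19 on leaving out a library, the 8 without WT water replicate 4. The cause of these shifts was not tested.

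Over all genes, same-numbered libraries did not deviate together (21 pairs, correlations -0.22 to 0.16, 2 above 0.1), so the numbers were taken as names. In the immediate early list, mean levels of replicates 1 and 2 lay below those of replicates 3 and 4 in DKO water, WT nicotine and WT water. In DKO nicotine, replicate 1 was the highest (3.58, against 3.33 and 3.36). A shared order of the libraries in this list was not tested. The replicate block gave 15 DKO and 11 WT calls. It turned Klf9, near 0, to 0.0152. On leaving out a library the interaction changed sign in Klf9 (-0.0835 to 0.0330), Mt1 (-0.0890 to 0.137), Fth1 (-0.106 to 0.00845), Cx3cr1 (-0.266 to 0.00401) and Ifitm3 (-0.00473 to 0.227), none of them called. With 3 or 4 libraries a group, interactions near the median standard error of 0.0902 were not detectable. DKO nicotine replicate 2, which lacked Y-linked expression, was left out as an alternative; the same cannot be done for WT nicotine.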
